A study of Homo sapiens with 9 samples.

Results

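A set of 10 transcription factors that govern monocyte, granulocyte and progenitor fates were followed in MOLM13 cells that lost or gained the RNA-binding protein RBM5. They were SPI1 (PU.1), CEBPA, CEBPB, CEBPD, CEBPE, RUNX1, IRF8, GFI1, KLF4 and MYB. Members were taken by gene symbol, and all 10 were found among the 57820 named genes of the count table. MOLM13 is an established human acute myeloid leukaemia line with a KMT2A fusion and an internal tandem duplication of FLT3. RNA-seq was carried out on 9 libraries in 3 groups of 3 biological replicates, to ask what loss and gain of RBM5 do to the transcriptome. CTRL cells carried a non-targeting sgRNA and were labelled wild type. RBM5 KO cells carried RBM5-sg1, a guide against a coding exon, and whether they were a clone is not given in the sources used here. RBM5 OE cells carried a lentiviral RBM5-P2A-Venus cDNA vector, and the study's methods name the EFS promoter for its cDNA vectors. No group with an empty cDNA vector was analysed here, so the vector and RBM5 itself cannot be told apart in RBM5 OE. Whether RBM5 OE cells also carried Cas9 or a guide is not given in the sources used here.

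SPI1 and CEBPA are the factors that commit progenitors to the myeloid lineages, and RUNX1 acts with them from the stem cell stage on. IRF8 and KLF4 drive monocyte fate, GFI1 and CEBPE drive granulocyte fate, and MYB keeps progenitors dividing. The C/EBP proteins bind the same DNA motif as dimers with one another: CEBPA prevails in steady-state myelopoiesis, while CEBPB is known for emergency granulopoiesis and for macrophage genes.

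Total expected counts per library lay between 25522952 and 27871988. RBM5 itself averaged 117 ± 4.84 CPM (TMM-scaled counts divided by library size; SD, n = 3) in the controls, against 74.6 ± 4.49 CPM after knockout and 403 ± 20.3 CPM after overexpression. By edgeR's quasi-likelihood test its log2 fold change against CTRL was −0.65 in RBM5 KO (adjusted p = 0.00692) and 1.78 in RBM5 OE (adjusted p = 4.11e-08). Of 10 markers of MOLM13 and monocytic leukaemia, 9 reached 1 TPM in every library, and ANPEP did not. Their summed level was lower in RBM5 KO (468.3 to 512.8 TPM) than in CTRL (531.5 to 565.7 TPM) and RBM5 OE (565.1 to 612.7 TPM). Erythroid and megakaryocyte markers, 5 of 8 at 0 in every library, summed to at most 0.68 TPM, markers of fibroblasts and epithelium to between 10.6 and 15.98 TPM and B cell markers to at most 2.97 TPM. T cell markers summed to 8.02 to 14.1 TPM in CTRL, 12.4 to 21.9 TPM in RBM5 KO and 16.7 to 18.2 TPM in RBM5 OE, and TRAC was the 1 of the 4 that reached 1 TPM in every library. The part of these shifts in the results was not tested. CTRL replicate 3 and RBM5 KO replicate 1 stood apart from their groups, with a chi-square per gene against the other replicates of 16.2 and 21.9 for the first and of 39.3 and 33.7 for the second. The pairs without them gave 8.88 in CTRL and 9.76 in RBM5 KO.

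Promoter windows are shown for the C/EBP members CEBPA and CEBPB, which moved in opposite directions in RBM5 OE, and for IRF8, the member that fell most there. They are RefSeq windows of GRCh38.p14, from 250 bases before to 50 bases after an annotated start, written 5′ to 3′ on the gene's strand. Of the 10 members, 8 had a window, and SPI1 was among those without one. CEBPB and IRF8 had 2 windows each, of which the one holding a searched motif is printed. The IRF8 windows overlap, and the one not printed reaches the start of the coding sequence. The annotated start behind the printed IRF8 window may therefore lie inside the gene, and this window may not be its main promoter. Capitals mark matches, on either strand, to short core motifs. These were AGGAAGT for ETS factors such as SPI1, TTGCGNAA for C/EBP factors, TGTGGT for RUNX factors and AACGG for MYB. Also searched were GGANTTTCC for NF-kB, GAAANNGAA for IRF factors, TGACG for CREB and ATF factors and TATAAA for the TATA box.
CEBPB, chr20:50190580-50190879, plus strand: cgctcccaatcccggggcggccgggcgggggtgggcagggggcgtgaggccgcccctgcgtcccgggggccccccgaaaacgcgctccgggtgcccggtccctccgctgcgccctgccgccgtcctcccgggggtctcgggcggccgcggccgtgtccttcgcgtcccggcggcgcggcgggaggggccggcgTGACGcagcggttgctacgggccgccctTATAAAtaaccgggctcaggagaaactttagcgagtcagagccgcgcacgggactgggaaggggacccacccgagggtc
CEBPA, chr19:33302485-33302784, minus strand: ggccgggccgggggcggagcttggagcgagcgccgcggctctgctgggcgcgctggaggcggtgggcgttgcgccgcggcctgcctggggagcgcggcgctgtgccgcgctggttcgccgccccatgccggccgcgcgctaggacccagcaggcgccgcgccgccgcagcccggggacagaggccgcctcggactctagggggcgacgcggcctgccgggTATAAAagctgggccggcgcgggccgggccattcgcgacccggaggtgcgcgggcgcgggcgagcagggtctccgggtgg
IRF8, chr16:85902580-85902879, plus strand: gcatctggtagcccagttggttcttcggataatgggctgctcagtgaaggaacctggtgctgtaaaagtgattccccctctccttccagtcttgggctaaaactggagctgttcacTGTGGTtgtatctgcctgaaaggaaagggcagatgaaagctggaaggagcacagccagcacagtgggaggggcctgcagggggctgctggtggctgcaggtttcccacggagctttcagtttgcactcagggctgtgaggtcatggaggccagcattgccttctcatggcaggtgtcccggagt

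The CEBPB and CEBPA windows each held a TATA box, starting at positions −29 and −30 from the start site, a motif found in 11.5% of the 35116 promoter windows of the table. CEBPB also held a TGACG match at −57 (24.6% of windows). The printed IRF8 window held a TGTGGT match at −134 from its own annotated start (13.1% of windows). The C/EBP windows were rich in G and C, at 76.7% for CEBPB and 80.7% for CEBPA, against a median of 58.7% over all windows. The printed IRF8 window had 56.3%, which may not hold for the main promoter of that gene. These matches describe the letters only, since no binding was measured in these libraries.

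In unperturbed cells the members spanned a wide range of levels, compared here as TPM, which corrects for gene length. CEBPA was the highest in CTRL at 412 ± 8.32 TPM (SD, n = 3), above 97.7% of the 10921 coding genes with at least 1 TPM. SPI1 followed at 355 ± 9.86 TPM and IRF8 at 299 ± 56.4 TPM, and the libraries of those neighbours overlapped. Then came MYB at 186 ± 19.8, GFI1 at 100.4 ± 1.83, CEBPD at 87.3 ± 1.70, RUNX1 at 51.6 ± 7.11, CEBPB at 35.9 ± 6.63, KLF4 at 8.63 ± 3.93 and CEBPE at 1.48 ± 0.318 TPM. Apart from SPI1 and IRF8, no neighbours in this order overlapped. In RBM5 KO the order of the means was the same, with overlap between CEBPA and SPI1 and between GFI1 and CEBPD. In RBM5 OE the order changed at several places: SPI1 (418 ± 20.6 TPM) stood above CEBPA (350 ± 11.1 TPM), MYB above IRF8, and CEBPB (79.6 ± 6.68 TPM) beside RUNX1 and above CEBPD (66.8 ± 3.93 TPM).

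**Figure D1:**
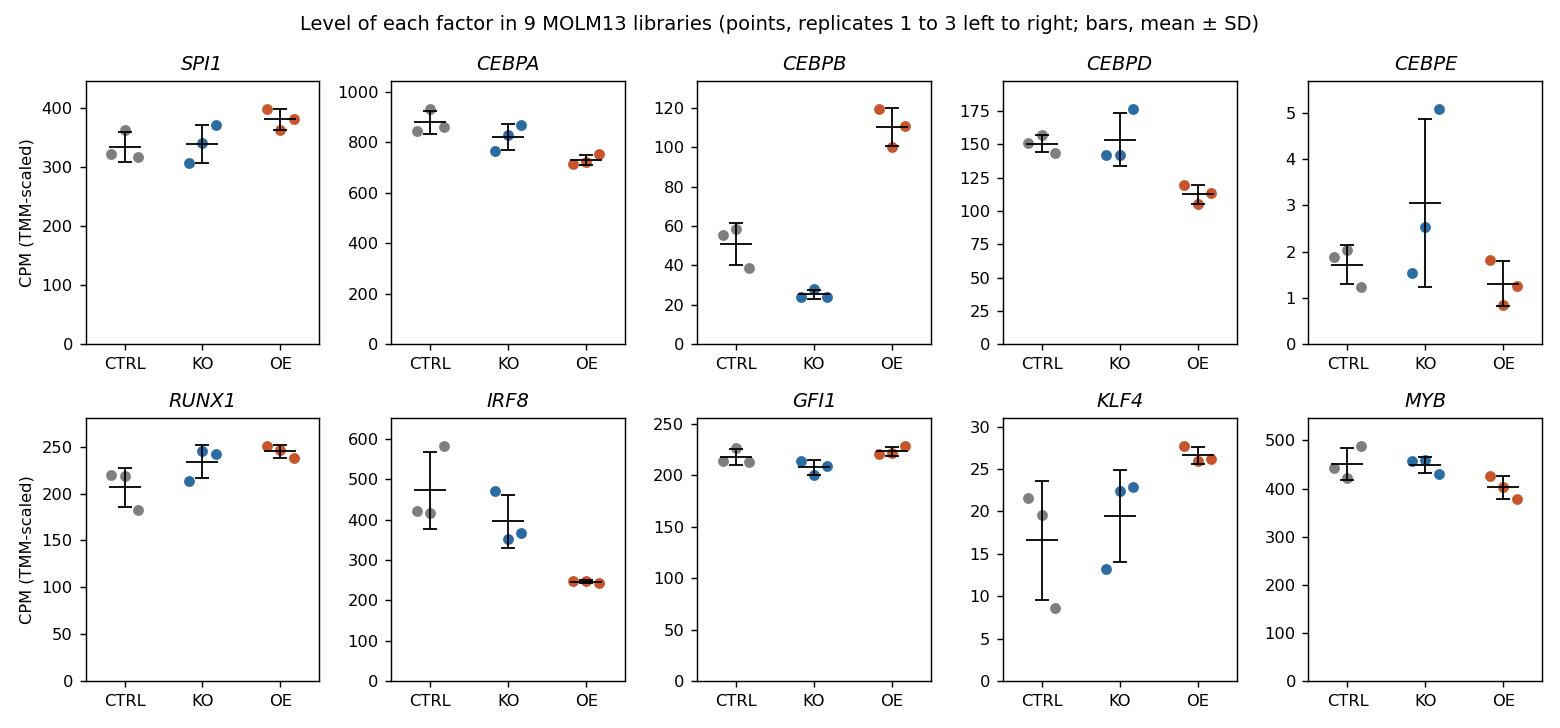
Level of each factor in TMM-scaled CPM (y axis, from 0) in CTRL, RBM5 KO and RBM5 OE; points are the 3 replicates in order and black bars the mean ± SD. CEBPB lay between 24.0 and 28 CPM in RBM5 KO, 38.9 and 58.7 CPM in CTRL and 99.96 and 119 CPM in RBM5 OE, and IRF8 lay between 242 and 248 CPM in RBM5 OE, below every other library.

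Loss of RBM5 was accompanied by a fall of CEBPB, while the other 9 factors did not pass the test. Across all genes 2.51% of the 14218 tested were called at an adjusted p under 0.05, against 1 of the 10 members. CEBPB was also the only member whose RBM5 KO and CTRL libraries did not overlap, a pattern found in 22.9% of genes tested. The median log2 fold change was 0.0076 over the members and 0.011 over all genes.

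CEBPB (ENSG00000172216.4; GRCh37 chromosome 20, 48807367 to 48809205, plus strand, a single-exon gene) showed 55.6, 58.7 and 38.9 CPM in the CTRL replicates. RBM5 KO libraries gave 24.0, 28 and 24.1 CPM, and RBM5 OE libraries 119, 99.96 and 111 CPM. The groups therefore lay in 3 separate ranges, with RBM5 KO lowest and RBM5 OE highest. Its log2 fold change in RBM5 KO was −1.01 (standard error 0.155, 95% interval −1.36 to −0.66, adjusted p = 0.0135 by edgeR's quasi-likelihood test). In RBM5 OE it was 1.11 (standard error 0.13, 95% interval 0.83 to 1.39, adjusted p = 6.98e-05), and CTRL libraries are shared by these comparisons. Tested directly, CEBPB was 4.34-fold higher in RBM5 OE than in RBM5 KO (log2 difference 2.12, standard error 0.143, adjusted p = 1.98e-06). The call in RBM5 KO was lost without CTRL replicate 1 (adjusted p = 0.0954), CTRL replicate 2 (0.0792) or RBM5 KO replicate 3 (0.0708), with log2 fold changes of −0.94, −0.90 and −0.98, and over 17 alternatives the adjusted p ranged from 1.39e-08 to 0.0954. CEBPB-AS1, annotated on the opposite strand, shares 231 bases with the CEBPB exon, and the reads of these genes cannot be told apart in counts made without strand.

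More of the factors differed from CTRL in RBM5 OE: CEBPB, KLF4, RUNX1 and SPI1 rose and IRF8, CEBPD and CEBPA fell. These 7 of 10 members stand against 40.1% of all 14370 genes tested, so changes were frequent throughout this comparison. The same 7 had no overlap between the groups, as did 51.7% of genes tested. Only CEBPB changed by more than 1 on the log2 scale, and the median over the members was −0.062 against 0.013 over all genes. The calls of CEBPB, IRF8, CEBPD and CEBPA held in each of the 16 alternatives that kept the same call rule, whereas KLF4 was called in 9, RUNX1 in 12 and SPI1 in 8. With an absolute log2 fold change over 1 required as well, CEBPB alone was called. The number of members called fell to 4 when any single RBM5 OE library was left out, to 6 without CTRL replicate 1 and to 5 without CTRL replicate 3, and rose to 8 without CTRL replicate 2. Among all genes, the number called went from 5756 to between 4184 and 4696 without 1 RBM5 OE library. Without CTRL replicate 1, 2 or 3 it was 5160, 5209 and 6161.

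**Figure D2:**
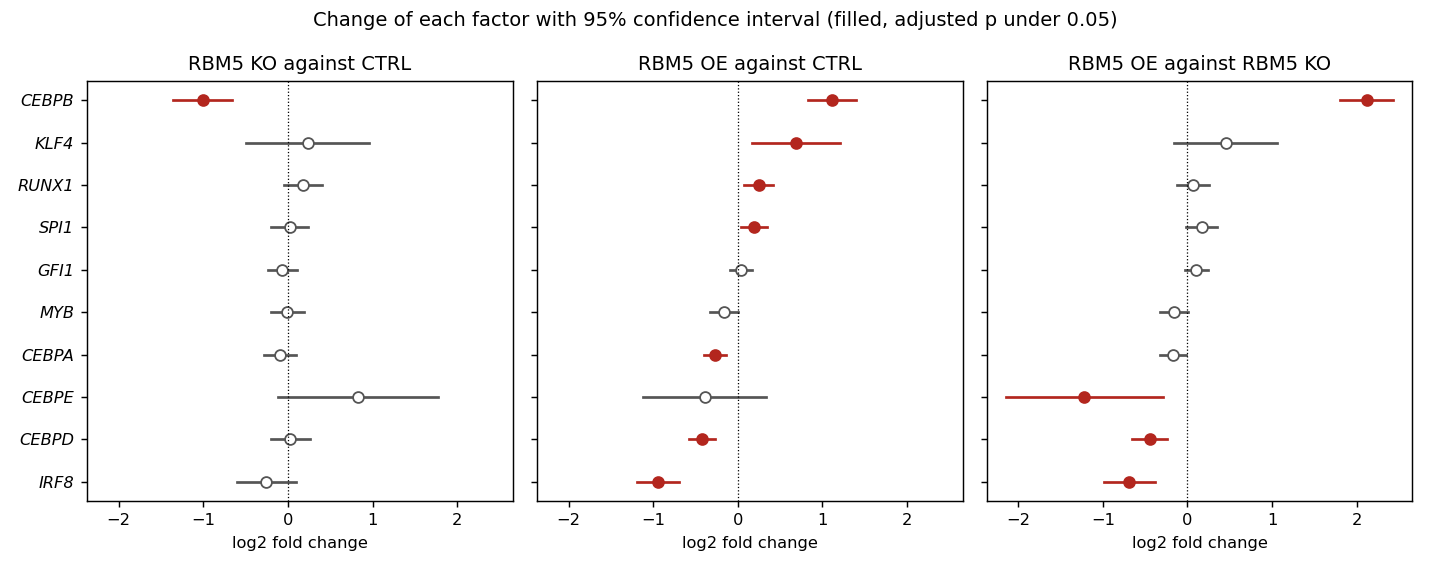
Log2 fold change of each factor (x axis) with its 95% confidence interval in the 3 comparisons; filled red points have an adjusted p under 0.05 by edgeR's quasi-likelihood test. CEBPB is filled in all 3 panels, at −1.01, 1.11 and 2.12, while the other 9 intervals in RBM5 KO cross 0.

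IRF8 (ENSG00000140968.6; GRCh37 chromosome 16, 85932722 to 85956212, plus strand), the interferon regulatory factor that directs progenitors to monocytes, gave 421, 415 and 583 CPM in CTRL. RBM5 KO libraries gave 471, 351 and 366 CPM, and RBM5 OE libraries 248, 248 and 242 CPM. Every RBM5 OE library lay below every library of the other groups, and RBM5 KO overlapped CTRL. IRF8 fell by 0.94 on the log2 scale in RBM5 OE (standard error 0.114, adjusted p = 8.8e-05 by edgeR's quasi-likelihood test) and lay 0.69 below RBM5 KO in the direct comparison (log2 difference −0.69, adjusted p = 0.00204). In RBM5 KO its log2 fold change was −0.26 (95% interval −0.61 to 0.09, adjusted p = 0.45). The libraries that stood apart were those with the highest IRF8 of their groups, and without CTRL replicate 3 the fall in RBM5 OE was −0.77 (adjusted p = 1.21e-08). In bulk RNA a lower share of cells that express a gene and less RNA per cell cannot be told apart.

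CEBPD, a C/EBP member induced by inflammatory signals, gave 151, 157 and 144 CPM in CTRL, 142, 142 and 176 CPM in RBM5 KO and 120, 105 and 113 CPM in RBM5 OE. Its RBM5 OE libraries were below all others. It fell by 0.42 on the log2 scale in RBM5 OE against CTRL (standard error 0.0701, adjusted p = 0.000748) and by 0.45 against RBM5 KO (adjusted p = 0.00274), both from edgeR's quasi-likelihood test. In RBM5 KO its log2 fold change was 0.03 (95% interval −0.20 to 0.26).

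CEBPA (ENSG00000245848.2; GRCh37 chromosome 19, 33790840 to 33793440, minus strand, a single-exon gene) stood at 845, 931 and 861 CPM in CTRL, 766, 829 and 867 CPM in RBM5 KO and 714, 720 and 753 CPM in RBM5 OE. The RBM5 OE libraries again lay below all others, by a small step. CEBPA fell by 0.27 on the log2 scale in RBM5 OE (standard error 0.0611, adjusted p = 0.00471 by edgeR's quasi-likelihood test). The value in RBM5 KO was −0.10 (95% interval −0.29 to 0.09), and RBM5 OE and RBM5 KO differed by −0.17 (adjusted p = 0.0682), which reached the threshold without RBM5 KO replicate 1 (−0.22, adjusted p = 0.0187).

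These shifts changed the make-up of the transcripts of the 4 C/EBP members. CEBPB made up 6.69 ± 1.18% (SD, n = 3) of the summed TPM of the 4 C/EBP members in control cells, against 3.64 ± 0.413% in RBM5 KO and 16.01 ± 1.15% in RBM5 OE. CEBPA remained the main member, at 76.8 ± 1.42%, 77.9 ± 1.07% and 70.3 ± 1.86% in the same order. Their summed level was 537 ± 8.53 TPM in CTRL, 492 ± 35.7 TPM in RBM5 KO and 497 ± 13.4 TPM in RBM5 OE, and every RBM5 KO and RBM5 OE library lay below every CTRL library. CEBPG, a C/EBP gene outside this sum and named here after its values were seen, stood at 123 ± 10.1 CPM in CTRL, 102 ± 5.12 CPM in RBM5 KO and 201 ± 13.4 CPM in RBM5 OE. It rose by 0.71 on the log2 scale in RBM5 OE (adjusted p = 4.74e-05 by edgeR's quasi-likelihood test), and its value in RBM5 KO was −0.28 (adjusted p = 0.157). CEBPB thus passed CEBPD in share only in RBM5 OE, where CEBPD held 13.4 ± 0.641%.

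**Figure D3:**
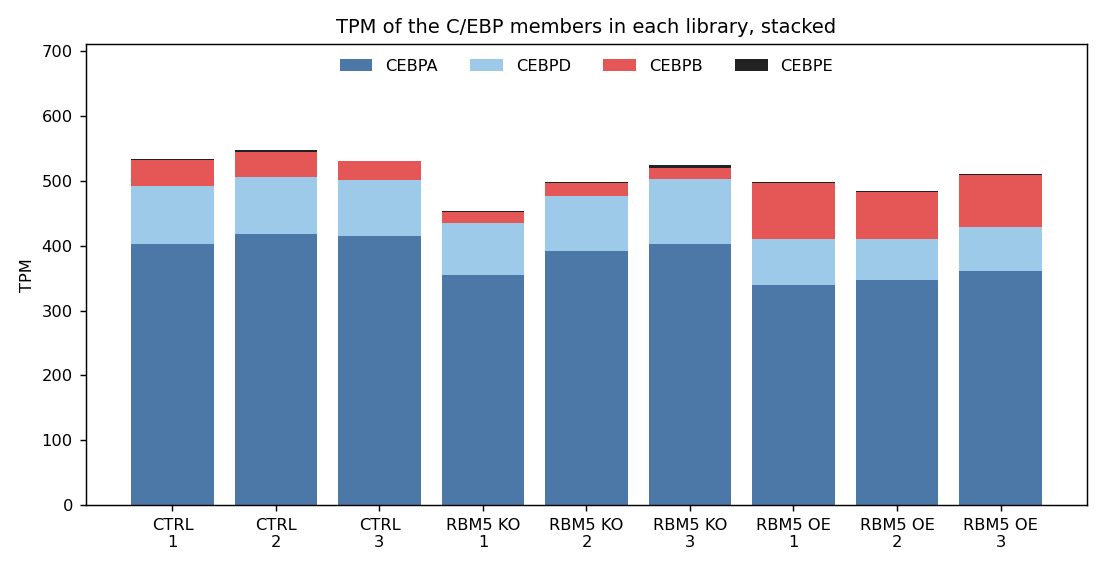
Stacked TPM of CEBPA, CEBPD, CEBPB and CEBPE in each of the 9 libraries (y axis from 0). The CEBPB layer is thinnest in RBM5 KO (16.7 to 20.1 TPM) and thickest in RBM5 OE (72.7 to 86.0 TPM), and the totals lie between 530.6 and 546.4 TPM in CTRL, 453.4 and 523.9 TPM in RBM5 KO and 483.4 and 510.2 TPM in RBM5 OE.

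CEBPE, the factor of terminal granulocyte maturation and of secondary granule genes, was the member nearest to the detection limit, with 1.88, 2.03 and 1.25 CPM in CTRL. RBM5 KO gave 1.54, 2.54 and 5.08 CPM and RBM5 OE 1.83, 0.847 and 1.25 CPM. One RBM5 KO library was high, and the groups overlapped. RBM5 OE lay below RBM5 KO by −1.22 on the log2 scale (standard error 0.424, adjusted p = 0.0378 by edgeR's quasi-likelihood test), a call that held in 10 of the 20 alternatives with the same call rule. Among the fits with 1 library left out, it was lost without RBM5 KO replicate 3 (−0.64, adjusted p = 0.22), RBM5 OE replicate 2 (−0.98, 0.135), RBM5 OE replicate 3 (−1.18, 0.1), CTRL replicate 1 (−1.22, 0.0529) or CTRL replicate 2 (−1.22, 0.0521). Against CTRL, its log2 fold change was 0.83 in RBM5 KO (adjusted p = 0.361) and −0.39 in RBM5 OE (adjusted p = 0.381). With both libraries that stood apart left out, the RBM5 KO value was 0.96 (adjusted p = 0.0322).

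KLF4 (GRCh37 chromosome 9, 110247133 to 110252763, minus strand), a zinc finger factor of monocyte differentiation, gave 21.5, 19.6 and 8.58 CPM in CTRL. RBM5 KO gave 13.2, 22.4 and 22.8 CPM and RBM5 OE 27.7, 25.9 and 26.2 CPM. The libraries that stood apart were the lowest of their groups, and RBM5 OE lay above all others. KLF4 rose by 0.69 on the log2 scale in RBM5 OE (standard error 0.239, adjusted p = 0.0389 by edgeR's quasi-likelihood test). Without CTRL replicate 3 the rise was 0.37 (adjusted p = 0.00337). The call was lost without RBM5 OE replicate 1 (0.65, adjusted p = 0.115), replicate 2 (0.70, 0.0766) or replicate 3 (0.69, 0.0807). It was also lost by DESeq2 (0.159), with all 9 libraries in the fit (0.0852), and with limma on log2(TPM + 1) (0.0952) and log2(TPM + 0.1) (0.096). In RBM5 KO the value was 0.23 (95% interval −0.49 to 0.96).

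RUNX1 (GRCh37 chromosome 21, 36160098 to 37376965, minus strand), the DNA-binding part of core binding factor, gave 220, 218 and 183 CPM in CTRL, 214, 246 and 242 CPM in RBM5 KO and 251, 247 and 238 CPM in RBM5 OE. RBM5 OE lay above CTRL and overlapped RBM5 KO. The rise in RBM5 OE was 0.25 (standard error 0.0769, adjusted p = 0.0239 by edgeR's quasi-likelihood test), and 0.53 on log2(TPM + 1) with limma (adjusted p = 0.00838). The count-based call was lost without CTRL replicate 3 (0.16, adjusted p = 0.0575), RBM5 OE replicate 1 (0.22, 0.0966), replicate 2 (0.24, 0.0882) or replicate 3 (0.26, 0.0511). RBM5 KO differed from CTRL by 0.18 (95% interval −0.05 to 0.40).

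SPI1 (ENSG00000066336.7; GRCh37 chromosome 11, 47376411 to 47400098, minus strand), the ETS factor PU.1, gave 321, 363 and 318 CPM in CTRL, 306, 340 and 371 CPM in RBM5 KO and 398, 363 and 382 CPM in RBM5 OE. The lowest RBM5 OE library (363.2 CPM) barely cleared the highest CTRL library (362.9 CPM). SPI1 rose by 0.19 in RBM5 OE (standard error 0.0699, adjusted p = 0.0463 by edgeR's quasi-likelihood test), and the call was lost without CTRL replicate 1 (0.15, adjusted p = 0.18), CTRL replicate 3 (0.15, 0.0965), RBM5 OE replicate 1 (0.15, 0.205), replicate 2 (0.22, 0.0793) or replicate 3 (0.18, 0.137). It was also lost with RLE scaling (0.0585), all 9 libraries in the fit (0.111) or a replicate block (0.0696). In RBM5 KO its value was 0.02 (95% interval −0.20 to 0.24).

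MYB and GFI1 passed the test in neither comparison with CTRL. MYB (GRCh37 chromosome 6, 135502446 to 135540311, plus strand) gave 442, 422 and 489 CPM in CTRL, 458, 460 and 429 CPM in RBM5 KO and 426, 402 and 378 CPM in RBM5 OE. Its log2 fold change was −0.01 in RBM5 KO (95% interval −0.20 to 0.19) and −0.16 in RBM5 OE (adjusted p = 0.102), and without CTRL replicate 2 the latter was −0.21 (adjusted p = 0.0417). GFI1 (GRCh37 chromosome 1, 92938600 to 92952482, minus strand), the repressor that favours granulocytes over monocytes, gave 214, 227 and 213 CPM in CTRL, 214, 200.1 and 210 CPM in RBM5 KO and 221, 221 and 229 CPM in RBM5 OE. GFI1 had log2 fold changes of −0.07 (95% interval −0.24 to 0.10) and 0.04 (95% interval −0.09 to 0.17), the narrowest intervals of the members in both comparisons.

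When RBM5 OE was set directly against RBM5 KO, with all 9 libraries fitted together, CEBPB was higher and IRF8, CEBPD and CEBPE were lower. That is 4 of 10 members, against 40.1% of the 14754 genes tested. Groups did not overlap for 7 of the members, against 52.6% of all genes. CEBPB, IRF8 and CEBPD were called in each of the 20 alternatives with this call rule. With an absolute log2 fold change over 1 required as well, CEBPB and CEBPE were called, and IRF8 and CEBPD were not.

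**Figure D4:**
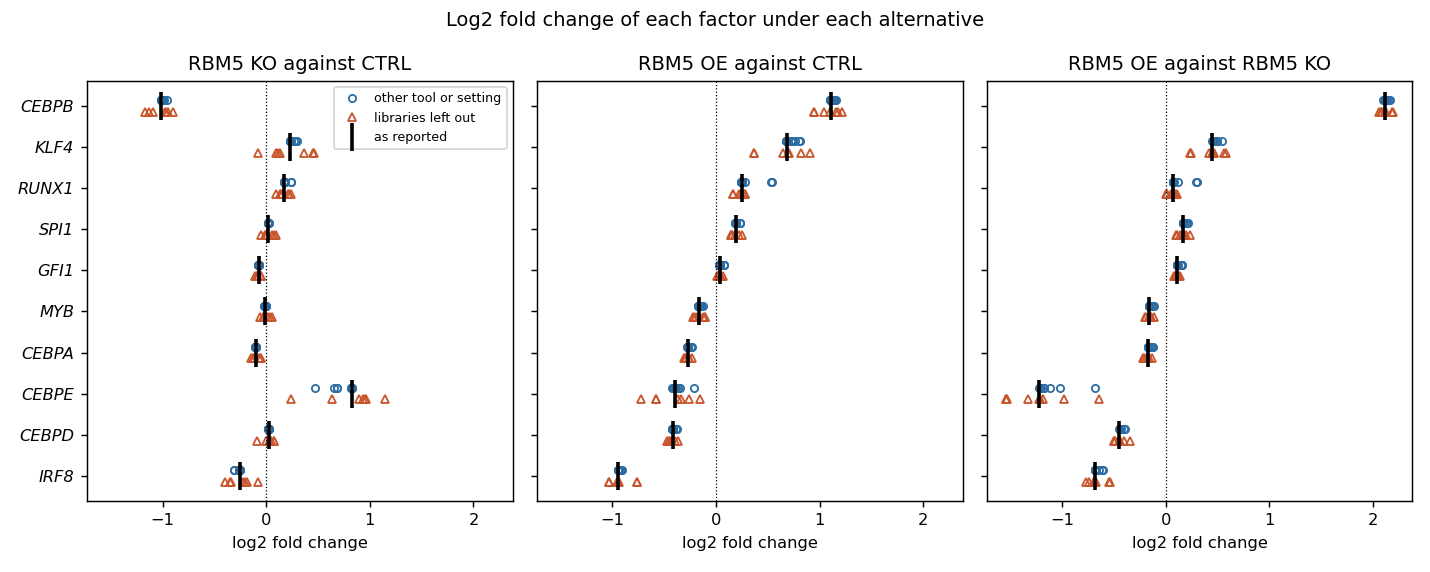
Log2 fold change of each factor (x axis) as reported (black line), under another tool or setting (circles) and with libraries left out (triangles), in the 3 comparisons. CEBPB stays between −1.17 and −0.90 in RBM5 KO and between 0.94 and 1.22 in RBM5 OE, while KLF4 spreads from 0.37 to 0.91 in RBM5 OE.

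The genes with the nearest profiles over the 9 libraries were those with the smallest root mean square difference from a member in centred log2 CPM, among 11583 genes. For CEBPB they were RP11-25K19.1 (0.138) and SPIB (0.169), an ETS factor closely related to SPI1. SPIB stood at 22.7 CPM in CTRL, 13.7 CPM in RBM5 KO and 52.9 CPM in RBM5 OE. For IRF8 they were KAZN (0.0878) and B4GALT5 (0.101), the latter at 197, 169 and 113 CPM in the same order. The nearest to CEBPA were POMT1 and TAB1, to CEBPD TMEM110 and SIN3B, to RUNX1 MCL1 and GZF1, to KLF4 ZNF416 and NEAT1, and to SPI1 PVRL2 and RPL13.

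Relatives of the members moved mostly upwards in RBM5 OE. Of 32 tested genes chosen from the C/EBP, ETS, RUNX, IRF, GFI, KLF and MYB families, 18 rose and 3 fell, with a median log2 fold change of 0.60. That is 65.6% called, against 40.1% of all genes, whose median was 0.013. The list does not cover these families in full. It counts CEBPZ, 1 of the 3 that fell (−0.25), which shares the C/EBP name but not the DNA-binding domain. The smallest p-values belonged to KLF10 (log2 fold change 1.22, adjusted p = 2.29e-06 by edgeR's quasi-likelihood test), DDIT3 (2.12, 4.75e-06), KLF9 (1.32, 1.12e-05) and RUNX2 (0.75, 2.34e-05). DDIT3, a C/EBP relative induced by the integrated stress response, went from 7.39 ± 2.07 CPM in CTRL to 32.0 ± 2.20 CPM in RBM5 OE. In RBM5 KO only SPIB (−0.73, adjusted p = 0.0472) and IRF1 (−0.79, adjusted p = 0.00707), a factor of the interferon response, were called among the 32, both lower (6.25%, against 2.51% of all genes). SPIB and IRF1 were also higher in RBM5 OE than in RBM5 KO, by 1.94 and 1.39 on the log2 scale. Without the libraries that stood apart, 19 relatives rose and 3 fell in RBM5 OE, and 3 rose and 3 fell in RBM5 KO, in fits that called 41.9% and 13.6% of all genes.

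Partners and corepressors of the members moved less uniformly. Of 19 tested, 3 rose and 7 fell in RBM5 OE (52.6%, against 40.1% of all genes), with a median of −0.044. MEN1, the menin scaffold of KMT2A complexes, fell by 0.70 on the log2 scale (adjusted p = 4.41e-05), KDM1A, the LSD1 demethylase that GFI1 recruits, by 0.51 (0.000179), and the corepressor CBFA2T3 by 0.60 (0.000347), all by edgeR's quasi-likelihood test. CREBBP, a coactivator of MYB and C/EBP factors, rose by 0.49 (adjusted p = 0.000264). In RBM5 KO 0 of the 19 were called by edgeR and 0 by DESeq2, tools that called 2.51% and 5.62% of all genes. By edgeR 0 of the 19 had an unadjusted p under 0.05, against 2382 of all 14218 genes tested. Without the libraries that stood apart 1 of the 19 rose and 0 fell, in a fit that called 13.6% of all genes.

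Factors of other myeloid steps rose in 11 of 23 and fell in 2 of 23 cases in RBM5 OE (56.5%, against 40.1% of all genes). BHLHE40 (1.10, adjusted p = 1.63e-05), PPARG (0.80, 0.000218), JUNB (0.72, 0.000223) and BACH1 (0.53, 0.000312) had the smallest p-values by edgeR's quasi-likelihood test. TFEC, a relative of MITF, was the only one of 24 called in RBM5 KO (0.42, adjusted p = 0.0479), and without the libraries that stood apart 5 rose and 4 fell, in a fit that called 13.6% of all genes instead of 2.51%. Among factors of other lineages, GATA2, a stem cell and mast cell factor, rose in RBM5 KO from 65.4 ± 11.6 to 153 ± 20.0 CPM (log2 fold change 1.22, adjusted p = 0.00601). In RBM5 OE all 8 tested factors of other lineages passed, 3 higher and 5 lower, against 40.1% of all genes. IKZF2 (1.16) and LYL1 (0.54) were among those that rose. GATA2 (−0.46, at 47.4 ± 1.57 CPM), IKZF1 (−0.40) and LMO2 (−0.36) were among those that fell.

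Among known target genes of the members, 7 of 10 genes listed as primary granule genes fell in RBM5 OE and the others did not pass. This stands against 40.1% of all genes called in either direction. The median of the 10 was −0.51. The list is not confined to proteins of that granule, and RNASE2 (−0.87) and RNASE3 (−0.45) in it were among those that fell. LYZ, the lysozyme gene, stood at 1309 ± 93.5 CPM in CTRL, 2216 ± 113 CPM in RBM5 KO and 535 ± 9.87 CPM in RBM5 OE. Its log2 fold change was 0.76 in RBM5 KO (adjusted p = 0.00524) and −1.29 in RBM5 OE (adjusted p = 4.3e-07) by edgeR's quasi-likelihood test. CTSG, the cathepsin G gene, fell in both, by 0.89 in RBM5 KO (adjusted p = 0.00968) and by 0.57 in RBM5 OE (adjusted p = 4.63e-05). RNASE2 and SRGN fell by 0.87 and 0.82 in RBM5 OE.

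Receptor and monocyte genes rose in 3 of 21 cases in RBM5 KO, and 6 rose and 6 fell in RBM5 OE. These are 14.3% and 57.1% of the list, against 2.51% and 40.1% of all genes. CYBB, the heavy chain of the phagocyte oxidase, was higher in both, by 1.56 in RBM5 KO (adjusted p = 0.00813) and 1.19 in RBM5 OE (adjusted p = 7e-06 by edgeR's quasi-likelihood test). S100A9, a subunit of calprotectin, rose by 1.09 in RBM5 KO (adjusted p = 0.0479) and had a log2 fold change of −1.97 in RBM5 OE (adjusted p = 2.62e-05). Its partner S100A8 showed −2.26 in RBM5 OE, at only 1.29 ± 0.192 CPM there. CD36, a scavenger receptor, had log2 fold changes of 0.88 and −0.91 in RBM5 KO and OE. With the libraries that stood apart left out, 8 of 21 rose in RBM5 KO, in a fit that called 13.6% of all genes.

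Genes listed as secondary granule genes were mostly undetected, with 2 of 8 tested. Of these, BPI was listed as a target of CEBPE but encodes a primary granule protein, which leaves only CHI3L1 for secondary granules. CHI3L1 rose (0.49) and BPI fell (−0.29) in RBM5 OE. In RBM5 KO neither was called by edgeR, with 1 at an unadjusted p under 0.05. DESeq2 called 1 of the 2 there, against 5.62% of all genes. Without the libraries that stood apart, 2 of 2 rose in RBM5 KO by edgeR, in a fit that called 13.6% of all genes. Of 8 tested progenitor genes linked to MYB, MYC (−0.44, adjusted p = 0.0363) and FLT3 (−0.60, adjusted p = 0.017) fell in RBM5 KO by edgeR's quasi-likelihood test. That is 25% called, against 2.51% of all genes. In RBM5 OE 3 of them rose and 2 fell (62.5%, against 40.1% of all genes). MYC was lower there too (−0.51, adjusted p = 9.44e-05), and KIT, at 1.71 ± 0.355 CPM, was higher (1.44, adjusted p = 0.00445).

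**Figure D5:**
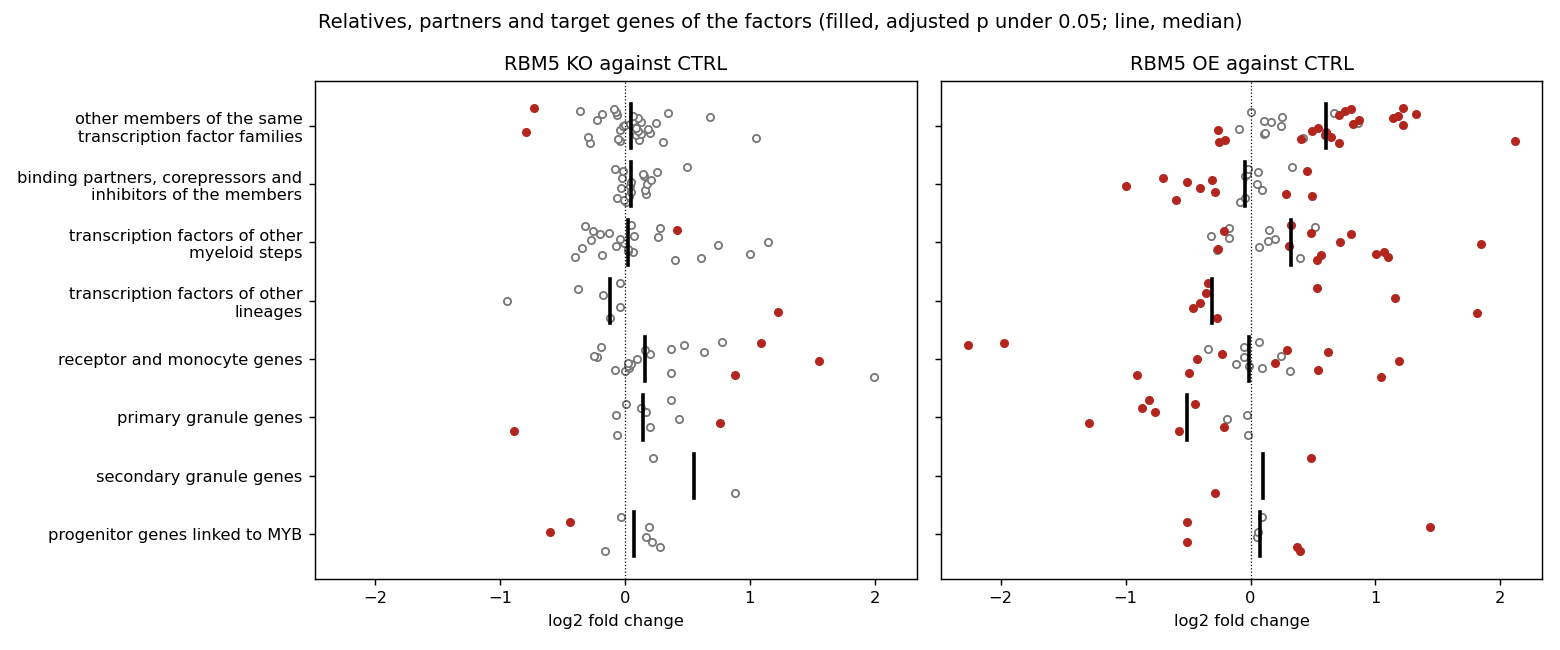
Log2 fold change (x axis) of each tested gene of 8 lists of relatives, partners and target genes in RBM5 KO and RBM5 OE against CTRL; filled red points have an adjusted p under 0.05 and black lines mark list medians. Relatives of the factors lie mostly to the right in RBM5 OE (median 0.60) and genes listed as primary granule genes to the left (median −0.51), while few points are filled in RBM5 KO.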

How the data were processed

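Per the labels, ribosomal RNA was depleted, and the authors used Trim Galore, STAR 2.7.1a, GATK 4.1.2.0 and RSEM on hg19 (GRCh37), without strand. The annotation version is not given in the sources used here. The deposited expected counts are RSEM's estimated counts, not scaled between libraries, and the deposited TPM values were scaled by the authors for length and library. Spike-in entries (92, all at 0) were left out.
Rounded counts were analysed in R 4.3.3 with edgeR 4.0.16 (filterByExpr, TMM, quasi-likelihood test), and p-values were adjusted by Benjamini-Hochberg across the whole table. A gene was called when its adjusted p was under 0.05. Comparisons with CTRL used the 6 libraries concerned, and that of RBM5 OE with RBM5 KO used all 9. The scripts were tested on simulated data. Every adjusted p is edgeR's unless DESeq2 1.42.0 or limma 3.58.1 is named. Alternatives were these tools, limma-voom, RLE scaling, library totals, other filters, other libraries in the fit, log2(TPM + 1), log2(TPM + 0.1), a replicate block, left-out libraries and a fold threshold. List counts by DESeq2 and without the libraries that stood apart were added after seeing the data.
The members, lists and doubted libraries were chosen with earlier results of these data known. Named by rule were all members, RBM5 and up to 4 called genes with the smallest p per list and comparison. The rule also took the 2 nearest profiles of each member called against CTRL, among tested genes averaging 1 or more in log2 CPM. Coordinates of genes are from GENCODE v44 lifted to GRCh37.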

Additional observations from a re-analysis of the deposited data

How the results depend on the processing

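The number of genes called in RBM5 KO depended most on the processing. From 357, it moved to 799 with DESeq2, 615 with no filter on low counts, 891 with all 9 libraries in the fit, 109 on log2(TPM + 1), 105 on log2(TPM + 0.1), 154 with a replicate block, 1959 without both libraries that stood apart and 148 with an absolute log2 fold change over 1 as well. Leaving out 1 library gave 27 to 1114 genes. Members called there ranged from 0 to 1 with 1 library left out and were 2 without both. In RBM5 OE, members called ranged from 4 to 8 with 1 library left out, and genes called from 4184 to 6161. With the fold threshold 1 member and 846 genes were called there. In RBM5 OE against RBM5 KO the fold threshold left 2 members and 1296 genes.
Reversals were confined to uncalled values in RBM5 KO. With 1 library left out, SPI1 ranged from −0.051 to 0.091, CEBPD from −0.087 to 0.080, KLF4 from −0.082 to 0.46 and MYB from −0.059 to 0.055. MYB was 0.041 without both libraries that stood apart. Among single values, 506 kept their direction and their side of the threshold, 40 lost their call and 5 gained one. The cause of these shifts was not tested. Leaving out both of those libraries is, for RBM5 OE against CTRL, the same fit as leaving out CTRL replicate 3, and it was counted once.
Replicate numbers gave no sign of pairing the samples: deviations of same-numbered libraries correlated at −0.292, 0.119 and −0.349 for RBM5 KO with CTRL. The largest correlation, 0.446, lay between RBM5 KO replicate 1 and CTRL replicate 3, the libraries that stood apart. These 2 libraries therefore shared part of their deviation, and its cause was not tested. With the replicate block, 1 member was called in RBM5 KO (among 154 genes called), 6 in RBM5 OE (among 5385) and 3 in RBM5 OE against RBM5 KO.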

Other observations

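RUNX1 gave a larger rise in RBM5 OE by TPM than by counts. RSEM divides by a length that it estimates from the isoforms present, and the ratio of count to TPM therefore follows that length. Relative to the median gene, this ratio for RUNX1 was lower in RBM5 OE than in CTRL by −0.26 on the log2 scale, and the groups did not overlap. Among 8727 genes with at least 5 TPM in every library, 2.8% had a larger absolute value. The same difference, rounded to 2 decimals, was at most 0.03 in size for SPI1, CEBPA, CEBPB, CEBPD, IRF8, GFI1 and MYB, and KLF4 and CEBPE were under 5 TPM in at least 1 library. For CEBPA too the RBM5 OE and CTRL libraries did not overlap, at a difference of only 0.00285. The share of all genes without overlap in this ratio was not computed. RUNX1 libraries ranged from 0.012 to 0.213 in CTRL and from −0.282 to −0.0781 in RBM5 OE. Isoform abundances were not analysed here, and the pattern was noticed after the values were seen.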
